A study of Mus musculus with 12 samples.

Results

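The 6 genes examined here encode channels of neuronal pacemaking and resting leak, and they were measured in the brainstem of neonatal mice: *Hcn2*, *Hcn3* and *Hcn4*, *Nalcn*, and *Unc79* and *Unc80*. They were taken by name from the count table, where they are 6 of 55418 genes, and all 6 passed the filter on low counts in every comparison. The study compared brainstems (medulla and pons) of outbred CFW mice given morphine or saline as pups, to ask how neonatal opioid exposure alters the transcriptome in each sex. Pups were injected subcutaneously with 15 mg/kg morphine or with saline, 2 times a day, from postnatal day (P) 1 to P14, and tissue was taken on P15, 16 h after the last injection, when the morphine-exposed mice were in spontaneous withdrawal. The 4 groups of 3 mice were saline females, morphine females, saline males and morphine males, with 1 poly-A RNA-seq library per mouse.

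HCN channels open when the membrane is hyperpolarized, are eased open by cyclic AMP, and carry a mixed sodium and potassium inward current, the pacemaker current, that helps neurons fire rhythmically. NALCN is a sodium leak channel that holds the resting potential closer to threshold. It works in a complex with the large auxiliary proteins UNC79 and UNC80 and with FAM155A, and NALCN-dependent leak is known for its part in the brainstem rhythm of breathing. Opioid receptors couple to inhibitory G proteins that lower cyclic AMP.

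The genes lie on different chromosomes of GRCm38 (GENCODE M21 annotation). *Hcn2* (ENSMUSG00000020331) is at chr10:79716634-79736108 on the plus strand, *Hcn3* (ENSMUSG00000028051) at chr3:89146074-89160196 on the minus strand and *Hcn4* (ENSMUSG00000032338) at chr9:58823412-58863175 on the plus strand. *Nalcn* (ENSMUSG00000000197) is at chr14:123276634-123627144 on the minus strand, *Unc79* (ENSMUSG00000021198) at chr12:102948859-103184065 and *Unc80* (ENSMUSG00000055567) at chr1:66468367-66699148, both on the plus strand. The reads were counted over exons. Exon length was 3195 bp for *Hcn2*, 4154 bp for *Hcn3* and 6118 bp for *Hcn4*, against 14715, 14265 and 14425 bp for *Nalcn*, *Unc79* and *Unc80*.

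The HCN genes are paralogs, and the codons of their ion selectivity filter show how close their sequences are and where they part. Each window below has 75 coding bases of GENCODE M21 on GRCm38, 5′ to 3′, with the glycine, tyrosine and glycine codons of the filter in capitals.
*Hcn2*: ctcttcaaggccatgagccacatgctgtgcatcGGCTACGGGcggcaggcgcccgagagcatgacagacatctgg
*Hcn3*: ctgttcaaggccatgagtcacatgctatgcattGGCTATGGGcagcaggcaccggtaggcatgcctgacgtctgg
*Hcn4*: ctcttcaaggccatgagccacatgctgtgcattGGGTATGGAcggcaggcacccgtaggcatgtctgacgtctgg
In this window *Hcn3* and *Hcn4* were identical at 67 of 75 bases, *Hcn2* and *Hcn4* at 64, and *Hcn2* and *Hcn3* at 61. Of the 14 bases that differed between *Hcn2* and *Hcn3*, 9 were at the third base of a codon. The longest run shared by the coding sequences of *Hcn2* and *Hcn3* was 33 bases, and it was 32 for each of the other pairs, against reads of 100 bases. No 100-base window of the *Hcn2* or *Hcn4* transcript occurred in another gene. *Hcn3* shared 711 bp of exon, 17.1% of its exon length, with *Pklr* (liver and red cell pyruvate kinase) on the opposite strand. No strand setting was stated for the counting, so reads there cannot be assigned to a strand. *Pklr* itself had 1 to 11 counts in any library, which does not show how reads over the shared exon were counted. Whether *Hcn3* lost or gained reads there was not tested.

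The 6 genes also differ in base composition, and the libraries differed in how gene levels varied with GC content. GC content of the longest transcript was 65.4% for *Hcn2*, higher than that of 99.7% of the genes tested. It was 58.0% for both *Hcn3* and *Hcn4*, 50.2% for *Unc79*, 48.0% for *Unc80* and 44.5% for *Nalcn*, against a median of 49.1% over 18608 genes. The first 90 coding bases of the genes at the extremes are shown to make this visible, with the start codon in capitals.
*Hcn2*: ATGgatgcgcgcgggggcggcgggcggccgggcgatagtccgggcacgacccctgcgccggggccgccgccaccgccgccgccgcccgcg
*Nalcn*: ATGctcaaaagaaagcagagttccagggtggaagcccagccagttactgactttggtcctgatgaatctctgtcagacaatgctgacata
GC content of these stretches was 86.7% for *Hcn2* and 46.7% for *Nalcn*. The contrast extended to the promoters of RefSeq (GRCm38.p6), windows of 300 bases across the gene start of RefSeq, which were given for 5 of the 6 genes. For *Hcn4* and *Unc80* that start lies upstream of the GENCODE start, and the window ends before the latter. They are printed for the same pair of genes on the strand of the gene, with the motif GGGCGG or its reverse complement CCGCCC in capitals.
*Hcn2* (chr10:79716384-79716683, plus strand): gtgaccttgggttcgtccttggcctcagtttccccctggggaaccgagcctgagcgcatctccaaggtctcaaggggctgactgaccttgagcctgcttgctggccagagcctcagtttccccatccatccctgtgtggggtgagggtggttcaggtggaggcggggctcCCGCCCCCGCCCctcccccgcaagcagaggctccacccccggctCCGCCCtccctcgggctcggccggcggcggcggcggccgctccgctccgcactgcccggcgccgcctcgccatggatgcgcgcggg
*Nalcn* (chr14:123627095-123627394, minus strand): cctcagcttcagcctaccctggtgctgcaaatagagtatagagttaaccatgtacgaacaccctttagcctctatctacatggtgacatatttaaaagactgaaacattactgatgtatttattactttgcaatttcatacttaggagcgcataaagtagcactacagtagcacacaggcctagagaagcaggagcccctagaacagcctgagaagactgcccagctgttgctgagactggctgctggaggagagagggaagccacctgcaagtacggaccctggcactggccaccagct
GC content was 72.3% in the *Hcn2* promoter and 48.3% in the *Nalcn* promoter, against a median of 52.7% over 32851 promoters. The motif, sought on both strands, occurred 3 times in the *Hcn2* promoter and 2 times in that of *Hcn4*, and in none of the windows of *Nalcn*, *Unc79* and *Unc80*. It occurred in 35.7% of all promoters.

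Total counts ranged from 27850565 to 48097947 per library, so the 6 genes were counted with 158 reads (*Hcn3*) to 10234 reads (*Unc80*) per mouse. Levels are CPM, counts scaled to the library's total after TMM normalization. The libraries differed in how a gene's level depended on its GC content. The slope of this dependence ran from -0.52 log2 units per 10 points of GC in saline male 3 to 0.55 in saline male 2 and 0.43 in saline male 1. The other 9 libraries lay between -0.32 and 0.26. The 3 saline males therefore held both extremes, and results that rest on saline male 3 are given with and without it. The labels give brainstem although the extraction text names spinal cords. Of 7 genes of brainstem noradrenergic, serotonergic and glycinergic neurons, the serotonergic *Tph2* was at 19.7 to 41.9 CPM, *Slc6a4* at 12.3 to 25.2 CPM, the noradrenergic *Dbh* at 3.37 to 9.64 CPM, and *Fev* under 1 CPM in all 12 libraries. The glycine transporter gene *Slc6a5*, which the spinal cord also expresses, was at 468 to 636 CPM. None of 5 Hox genes of the thoracic to lumbar cord exceeded 0.0870 CPM, and cervical cord was not examined. The library labelled morphine male 6 had 380 CPM of *Xist*, against 550 to 979 CPM in females and 0.399 to 2.65 CPM in the other males.

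*Hcn2* and *Unc80* had the highest levels of the 6 genes once exon length was taken into account, and *Hcn3* had the lowest. Per kilobase of exon, the mean level over 12 mice was 35.3 CPM for *Hcn2* (range 20.8 to 60.1), 17.9 for *Unc80* (at most 20.2), 11.8 for *Nalcn* (9.09 to 14.9), 3.46 for *Hcn4* (2.89 to 4.19), 2.98 for *Unc79* (2.60 to 3.38) and 2.07 for *Hcn3* (1.17 to 4.10). All 5 neighbours in this order differed beyond their spread over the 12 mice (exact two-sided sign-flip permutation test, adjusted p of at most 0.00879). The pore gene *Hcn2* exceeded *Unc80* in 12 of 12 mice, *Hcn4* exceeded *Unc79* in 10 of 12 and *Unc79* exceeded *Hcn3* in 10 of 12. In the 6 saline mice alone the order was the same, but no neighbour passed. With 6 mice the smallest p that the sign-flip test allows is 0.03125 before adjustment, which limits what it can show. The adjusted p was 0.0521 for the 3 upper pairs, and 0.188 for *Hcn4* over *Unc79* and *Unc79* over *Hcn3*. The place of *Nalcn* depended on the length used. With coding length alone *Nalcn* stood above *Unc80* and 3 of the 5 neighbours passed. Levels of genes that differ in GC content also carry the GC dependence of the library.

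**Figure D1:**
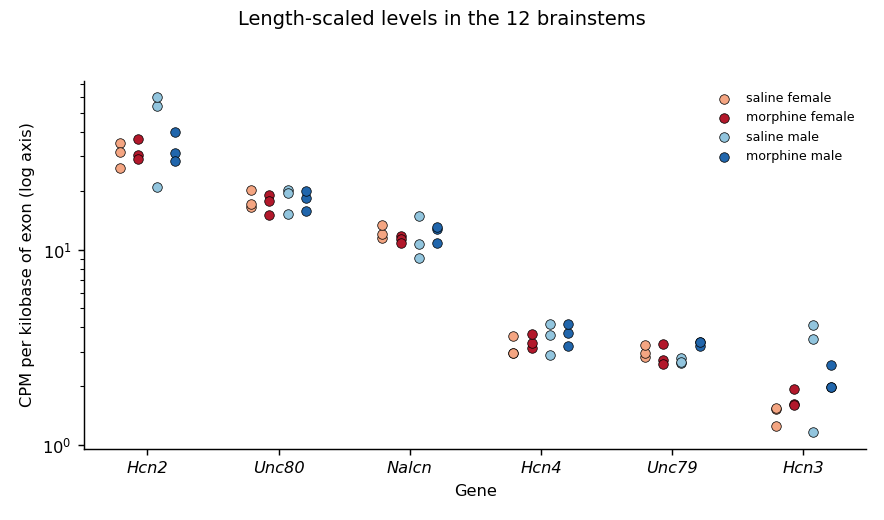
Level per kilobase of exon (CPM per kilobase, log axis) of the 6 genes in the 12 brainstems, 1 point per mouse, coloured by group. *Hcn2* had the highest mean, 35.3, and *Hcn3* the lowest, 2.07, and the saline males spread widest for both.

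No morphine effect on the HCN genes passed the test in the sex-combined data. Genes are called differentially expressed (DE) when the p of edgeR's quasi-likelihood test was under 0.05 before adjustment and the log2 fold change (log2FC) was beyond ±0.26. In the sex-combined comparison 1.19% of 18608 genes were DE, and 0 of the 6 channel genes were. None of the 6 had an unadjusted p under 0.05 in the sex-combined data or within either sex (edgeR), and none was DE by DESeq2's Wald test or by exactTest. Over the whole table edgeR's quasi-likelihood test gave 0 genes with an adjusted p under 0.05 in these 3 comparisons, where 221, 328 and 543 genes were DE. DESeq2's Wald test gave 0, 3 and 0 such genes and exactTest 0, 3 and 1, in the sex-combined data, in females and in males.

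*Hcn2*, the HCN subunit found widely through the brain, varied far more between saline males than in any other group. Its level was 112, 101 and 83.3 CPM in saline females, 97.9, 92.9 and 117 CPM in morphine females, 173, 192 and 66.5 CPM in saline males, and 99.8, 90.7 and 128 CPM in morphine males. Both the highest and the lowest mouse were saline males, with a 2.89-fold range within that group, and treatment groups overlapped in both sexes. The log2FC of morphine against saline was -0.19 ± 0.217 (SE) in the sex-combined data, 0.05 ± 0.126 in females and -0.46 ± 0.377 in males (edgeR, adjusted p of at least 0.999 in each).

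*Hcn3*, which encodes a subunit that responds little to cyclic AMP, was the scarcest of the 6 and had the same wide spread in saline males. It was at 6.34, 6.42 and 5.20 CPM in saline females and 6.71, 6.67 and 8.09 CPM in morphine females. In saline males it was at 14.5, 17.0 and 4.85 CPM, and in morphine males at 8.23, 8.19 and 10.7 CPM. All 3 morphine females were above all 3 saline females, although the log2FC of 0.25 ± 0.157 did not pass (edgeR, adjusted p = 0.9998). Groups of females failed to overlap for 5.67% of the 18109 genes tested, and with morphine higher for 2.91%. In males the log2FC was -0.45 ± 0.433, and the groups overlapped.

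*Hcn4*, the strongly cyclic AMP-sensitive subunit known from the sinoatrial node of the heart, was the steadiest of the 3 HCN genes in CPM. It was at 22.1, 18.2 and 18.0 CPM in saline females, 19.2, 20.3 and 22.5 CPM in morphine females, 22.3, 25.6 and 17.7 CPM in saline males and 23.0, 19.6 and 25.6 CPM in morphine males. All 12 mice lay within a 1.45-fold range, and groups overlapped in both sexes. After loess adjustment for GC content and length the ranking turned. The log2 levels of *Hcn4* then spanned 0.82, against 0.63 for *Hcn2* and 0.69 for *Hcn3*. The log2FC of *Hcn4* was 0.07 ± 0.111 in the sex-combined data, 0.08 ± 0.119 in females and 0.03 ± 0.194 in males. Of 3 heart genes, *Nppa* was at no more than 0.148 CPM and *Tnni3* at no more than 1.16 CPM in any library, and *Myh6* was at 4.21 to 11.1 CPM.

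**Figure D2:**
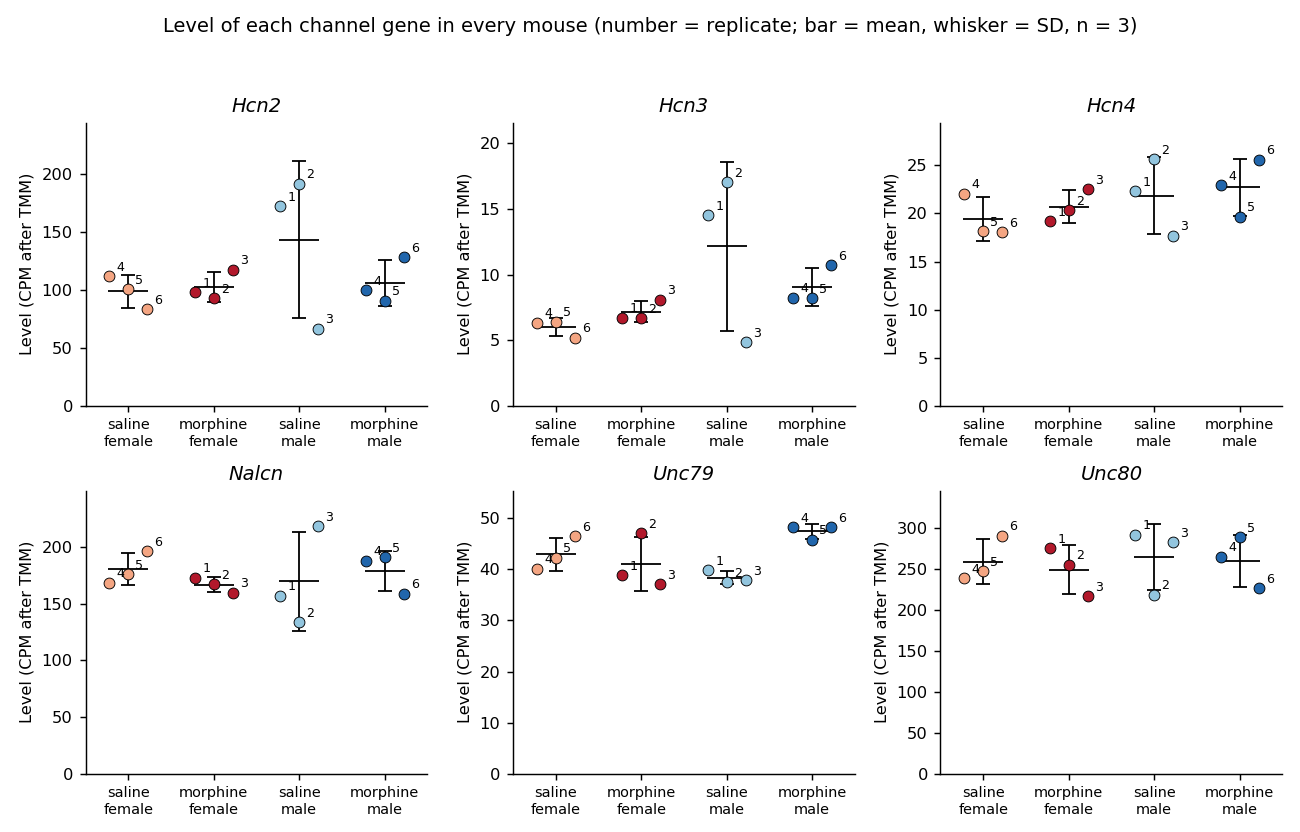
Level (CPM after TMM, axis from 0) of each gene in the 12 mice by group. Points are mice labelled by replicate number, horizontal bars are means and whiskers SD (n = 3). *Hcn2* and *Hcn3* spread widely in saline males, and the 3 morphine males lie above the 3 saline males for *Unc79*.

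The spread of the HCN genes followed the GC dependence of the libraries. Across the 12 mice the log2 level of *Hcn2* correlated with the GC slope of its library at r = 0.98 (Spearman's rho = 0.92), that of *Hcn3* at r = 0.95 (rho = 0.85) and that of *Hcn4* at r = 0.86 (rho = 0.90). *Nalcn*, the gene with the lowest GC content of the 6, ran the other way at r = -0.91 (rho = -0.88). These 4 relations passed after adjustment over the 6 genes (permutation test, two-sided, adjusted p of at most 0.00174 for either coefficient). *Unc80* (r = -0.48, rho = -0.44, permutation p = 0.115 and 0.154) and *Unc79* (r = -0.17, rho = -0.20, permutation p = 0.587 and 0.540) did not. Without saline males 2 and 3, the libraries farthest from the median slope, r was 0.96 for *Hcn2*, 0.92 for *Hcn3*, 0.77 for *Hcn4* and -0.78 for *Nalcn*. Within the 6 saline mice r was 1.00 for *Hcn2*, 0.96 for *Hcn3*, 0.93 for *Hcn4* and -0.96 for *Nalcn*, and within the 6 morphine mice it was 0.96, 0.84, 0.89 and -0.62. The relations were examined after the data had been seen, and the slope is itself estimated from the other genes of a library, without these 6 genes. It measures how genes of high GC content stand against genes of low GC content. Any gene with GC content far from the median therefore tends to follow it. The share of all genes that would pass is not given here, so the p-values do not single out these channel genes.

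**Figure D3:**
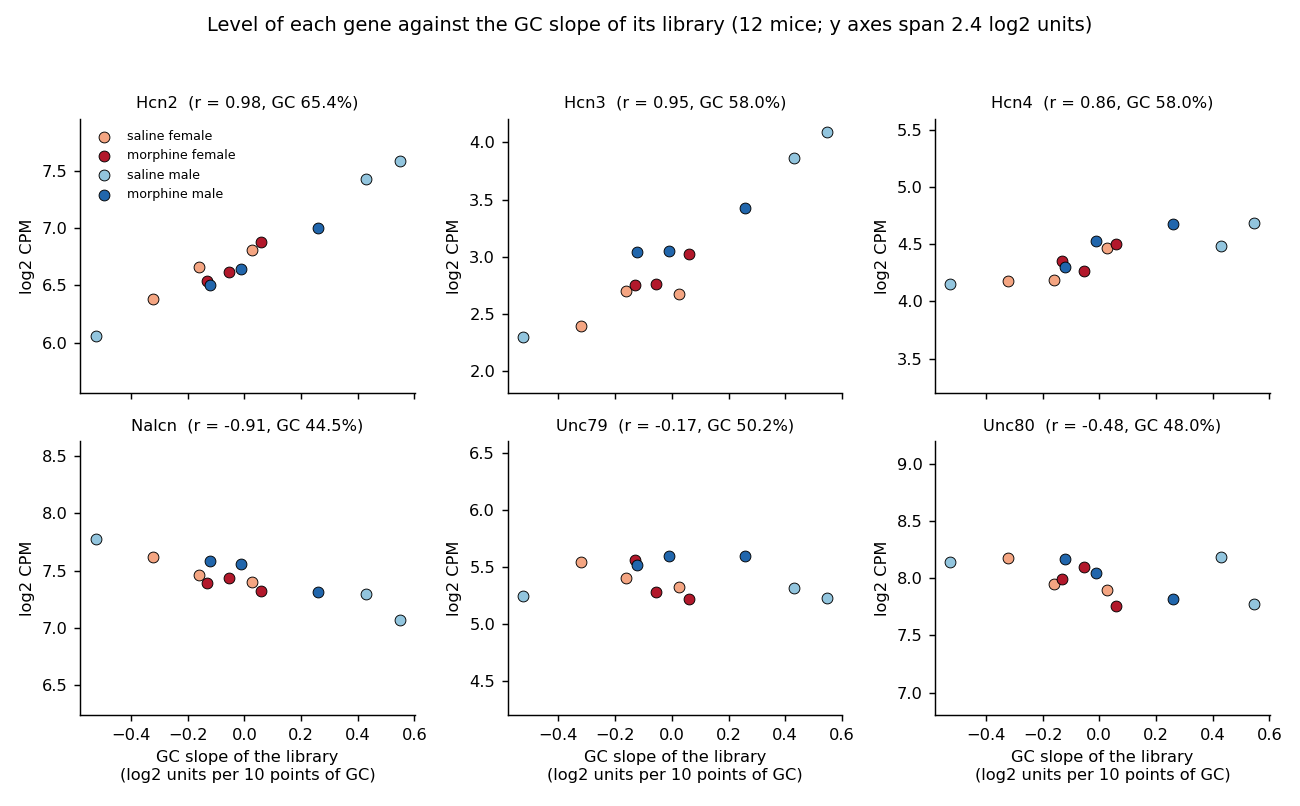
Log2 CPM of each gene against the GC slope of its library (log2 units per 10 points of GC), 1 point per mouse, with every y axis spanning 2.4 log2 units. *Hcn2* (r = 0.98), *Hcn3* (r = 0.95) and *Hcn4* (r = 0.86) rise with the slope, *Nalcn* (r = -0.91) falls, and *Unc79* (r = -0.17) shows no slope.

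*Nalcn*, the pore of the leak channel, did not differ between morphine and saline mice beyond the spread. It was at 169, 176 and 196 CPM in saline females, 173, 167 and 160 CPM in morphine females, 157, 134 and 219 CPM in saline males and 188, 191 and 159 CPM in morphine males. The highest and lowest mice were again saline males, in reverse order to *Hcn2*. The log2FC was -0.02 ± 0.111 in the sex-combined data, -0.12 ± 0.0931 in females and 0.05 ± 0.200 in males.

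*Unc80*, which encodes the scaffold that links UNC79 to NALCN, had the most counts of the 6 genes and overlapped between the groups throughout. It was at 239, 247 and 290 CPM in saline females, 275, 255 and 217 CPM in morphine females, 292, 218 and 282 CPM in saline males and 265, 288 and 226 CPM in morphine males. The log2FC was -0.04 ± 0.0988 in the sex-combined data, -0.06 ± 0.117 in females and -0.05 ± 0.159 in males.

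*Unc79*, the partner of UNC80, was the gene of the leak complex whose male groups separated. It was at 39.9, 37.5 and 37.9 CPM in saline males and 48.2, 45.8 and 48.3 CPM in morphine males, so that every morphine male was above every saline male. In females it was at 40.1, 42.3 and 46.4 CPM with saline and 38.9, 47.1 and 37.1 CPM with morphine, and the groups overlapped. The log2FC in males was 0.28 ± 0.122, which narrowly missed the unadjusted threshold (edgeR, adjusted p = 0.99987), and male groups failed to overlap for 8.86% of 18166 genes, with morphine higher for 5.60%. Of those genes 2.99% were DE in males, and 0 of the 6 channel genes. In females, where 1.81% were DE and again 0 of the 6, the log2FC of *Unc79* was -0.07 ± 0.118, and in the sex-combined data it was 0.12 ± 0.0939. *Unc79* was past both thresholds in males with DESeq2's size factors (0.30), with total counts as the scale (0.40) and in the fit of all 12 mice (0.30), and was not with exactTest, DESeq2's Wald test or no filter. Without the library labelled morphine male 6 the log2FC was 0.25 and not DE. With the GC slope of the library as a covariate, added after the data were seen, the log2FC was 0.28 ± 0.0606 (edgeR, adjusted p = 0.0298), in a fit where 2071 of 18817 genes were DE and 1115 had an adjusted p under 0.05, against 0 without the covariate. With loess offsets for GC content and length it was 0.19 ± 0.0807, under the fold threshold. Of the markers of other cells, 3 of 5 cerebellar granule cell genes (*Gabra6*, *Cbln3* and *Fat2*) and 3 of 5 choroid plexus genes (*Kl*, *Folr1* and *Clic6*) were DE and higher in morphine males. Of 6 oligodendrocyte genes 1 (*Mobp*) was DE and lower, with a list median of -0.34, and none of 8 neuronal genes was DE. The summed granule cell markers were at 87.5 to 123 CPM in saline males and 108 to 176 CPM in morphine males, with no marker at 0 in every library, and those of the choroid plexus at 263 to 517 and 413 to 834 CPM. Their part in the level of *Unc79* was not tested, and in whole tissue fewer cells of a type cannot be told apart from less RNA per cell.

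The morphine effect on *Unc79* differed between males and females at the unadjusted threshold. The interaction of treatment and sex was 0.37 ± 0.165 on the log2 scale, higher in males (edgeR, adjusted p = 0.985), and it made *Unc79* the only 1 of the 6 genes that was DE in this test, against 2.94% of 19027 genes, and 1.61% with the higher value in males. The call was lost when any 1 of 11 mice was left out and kept only without morphine female 2, with values from 0.28 to 0.48. It was also lost with DESeq2's size factors, with no filter and with loess offsets. The choroid plexus gene *Kl* (1.35) and the granule cell gene *Fat2* (0.89), each 1 of 5 on its list, were DE in the same direction, and their part in this result was not tested. For the other 5 genes the interaction was -0.49 ± 0.427 for *Hcn2*, -0.69 ± 0.487 for *Hcn3*, -0.04 ± 0.232 for *Hcn4*, 0.19 ± 0.224 for *Nalcn* and 0.03 ± 0.206 for *Unc80*, and none passed.

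**Figure D4:**
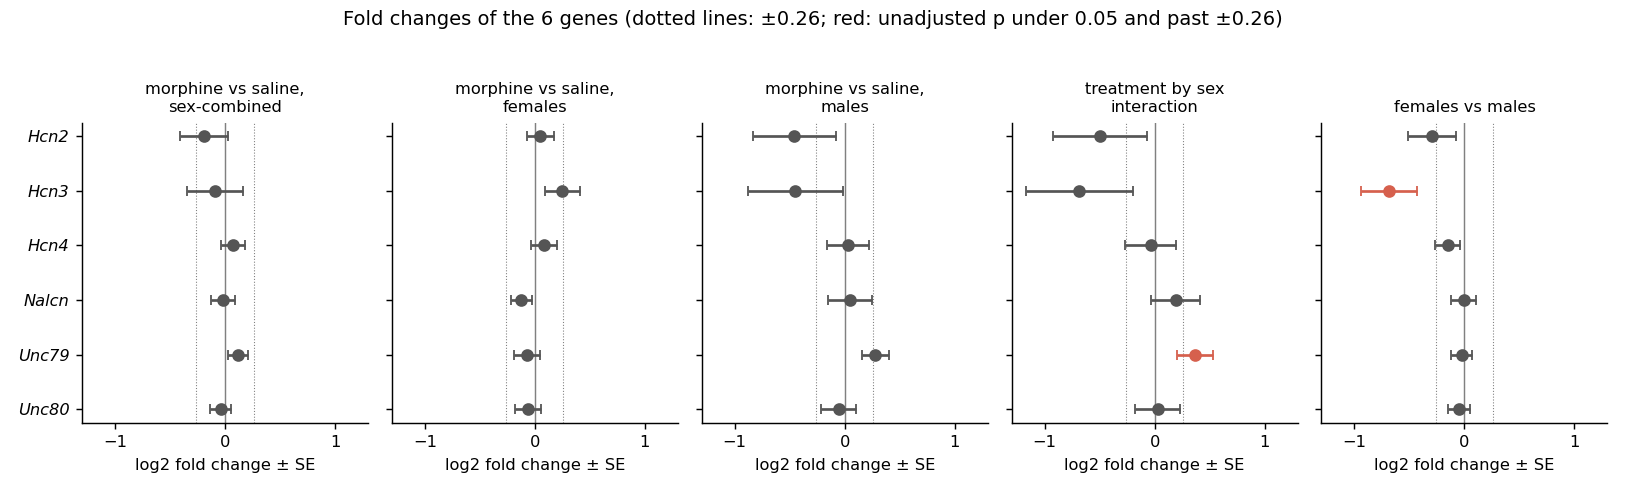
Log2 fold change ± SE of the 6 genes in the 5 comparisons, with dotted lines at ±0.26. Only *Unc79* in the interaction (0.37) and *Hcn3* in females against males (-0.68) are DE by the unadjusted threshold, shown in red.

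Calls on the HCN genes in males turned on saline male 3. Without that mouse, which has the most negative GC slope, *Hcn2* fell by 0.77 and *Hcn3* by 0.79 on the log2 scale in morphine males (edgeR, adjusted p = 0.0218 and 0.0249), and *Nalcn* (0.30) and *Unc79* (0.30) were DE and higher. The 2 saline males that then remain have the most positive GC slopes of the 12 libraries. The number of DE genes in males rose at the same time from 543 to 5341. With loess offsets for GC content and length, and all 6 males, the log2FC was 0.02 ± 0.158 for *Hcn2*, -0.15 ± 0.148 for *Hcn3* and 0.00 ± 0.0841 for *Nalcn*. With the GC slope as a covariate *Hcn2* was at -0.19 ± 0.0503 in males (edgeR, adjusted p = 0.0557) and -0.13 ± 0.0417 in the sex-combined data (edgeR, adjusted p = 0.936), past the unadjusted p threshold in both but under the fold threshold. *Hcn3* was at -0.11 ± 0.104 and *Nalcn* at 0.01 ± 0.0569 in males.

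**Figure D5:**
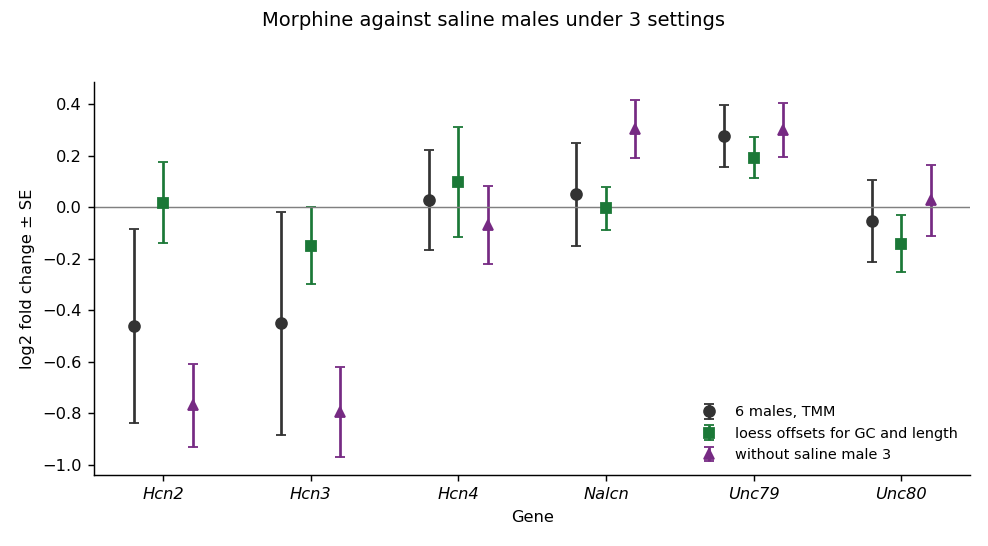
Log2 fold change ± SE of morphine against saline in males for the 6 genes under 3 settings. Leaving out saline male 3 moves *Hcn2* to -0.77 and *Hcn3* to -0.79, and loess offsets move them to 0.02 and -0.15, whereas *Unc79* stays between 0.19 and 0.30.

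Females had less *Hcn3* than males at the unadjusted threshold. The 6 females were at 5.20 to 8.09 CPM with a median of 6.55, and the 6 males at 4.85 to 17.0 CPM with a median of 9.47. The ranges overlapped, since saline male 3 was the lowest of all mice. The sexes did not overlap for 0.140% of all genes, and for none of the 6. The log2FC of females against males was -0.68 ± 0.255 (edgeR, adjusted p = 0.734), which made *Hcn3* the 1 channel gene that was DE, against 3.94% of 18608 genes and 3.05% in this direction. The difference was -0.33 ± 0.103 with loess offsets, -0.27 ± 0.0905 with the GC slope as a covariate, DE in both, and -0.85 without saline male 3 (edgeR, adjusted p = 0.0493). Without that mouse *Hcn2* was DE as well, and 3947 genes were DE and 476 had an adjusted p under 0.05, against 733 and 5 with all mice. Without morphine male 6 it was -0.67 and still DE. The 6 log2FC ran from -0.68 to -0.01 (*Nalcn*), with a median of -0.10 against 0.01 over all genes. With loess offsets 3 of the 6 turned, *Hcn2* from -0.29 ± 0.217 to 0.21 ± 0.0943, *Hcn4* to 0.11 and *Unc79* to 0.04. Some markers of other cells were also DE and lower in females. Among them were 3 of 5 choroid plexus genes (*Ttr* at -2.02, *Folr1* at -1.92 and *Clic6* at -1.16). The Purkinje cell gene *Pcp2* and the muscle gene *Acta1*, each 1 of 4 on its list, were the others. *Pcp2* was scarce, at 0.0581 to 1.22 CPM. *Acta1* was at 10.8 CPM in saline male 2 and next highest in saline male 1, at 1.72 CPM. The summed choroid plexus markers were at 10.1 to 470 CPM in saline females, 29.3 to 163 CPM in morphine females and 263 to 834 CPM in males. Their part in the level of *Hcn3* was not tested.

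Ratios between genes of the same library were compared because subunits assemble together. In the sex-combined data the length-scaled level of *Unc79* was 24.2% of that of *Nalcn* in saline and 26.3% in morphine mice, and that of *Unc80* was 153% and 149%. These percentages rest on exon length. With coding length *Unc80* lay below *Nalcn*, at a mean log2 difference of -0.37. The length used does not alter the comparison of morphine with saline. *Hcn3* was at 5.43% and 5.94% of *Hcn2*, and *Hcn4* at 9.46% and 10.9%. None of the 12 comparisons of the 4 ratios passed (exact two-sided permutation test, smallest adjusted p = 0.849). In females the ratio of *Hcn3* to *Hcn2* was 4.68% with saline and 5.37% with morphine without overlap (exact permutation p = 0.1, the smallest that 3 mice against 3 allow). The share of other gene ratios without overlap was not computed.

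Partners of the channels and other background conductances were counted from lists. Of 7 listed partners, 6 were in the table and tested, and 0 were DE in any of the 5 comparisons. The highest was *Pex5l*, which encodes the HCN trafficking protein TRIP8b, at 120 to 155 CPM, and next was *Kctd3*, an HCN-associated protein, at 89.4 to 129 CPM. *Fam155a*, the further subunit of the NALCN complex, was among the steadiest at 61.5 to 67.5 CPM, with a log2FC of -0.02 ± 0.0621 in the sex-combined data. Of 14 two-pore potassium leak channel genes 11 were tested, and 1 was DE in the sex-combined data, 0 in females and 1 in males. Of all genes tested, 1.19%, 1.81% and 2.99% were DE in these comparisons. *Kcnk12* was lower with morphine in the sex-combined data (log2FC -0.68 ± 0.307, edgeR, adjusted p = 0.9999) and lower in females than in males (-0.89 ± 0.308). Saline males 1 and 2, the libraries with the most positive GC slopes, were at 2.55 and 2.90 CPM of this gene. The other 10 mice were at 0.616 to 1.46 CPM, and the longest *Kcnk12* transcript has 69.4% GC. *Kcnk1* (TWIK-1) was lower in morphine males, at 67.6, 69.0 and 71.3 CPM against 76.4, 83.1 and 97.3 CPM in saline males (-0.33 ± 0.138, edgeR, adjusted p = 0.9999). *Kcnk9* (TASK-3) had the most counts of that list at 340 to 510 CPM and was not DE. Of 7 TRP cation channel genes, which carry other inward background currents, 0 were DE with morphine. *Trpc1* was at 28.4 to 41.5 CPM. *Trpm4* was lower in females than in males (-0.58 ± 0.219, edgeR, adjusted p = 0.734).

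The genes whose log2 levels across the 12 mice were most like those of each channel gene are given as a description. For *Hcn2* these were *Nat8l* (r = 1.00), *Tbc1d10b* (r = 0.99) and *Chst1* (r = 0.99), and for *Hcn3* *Lmnb2*, *Rpap1* and *Ano8* (r = 0.99 each). For *Hcn4* they were *Irgq* (r = 0.96), *Aars* (r = 0.95) and *Map6* (r = 0.94). These 9 genes had GC contents of 55.8% to 59.1%, above the median of all genes. For *Nalcn* they were *Cacna2d1* (r = 0.98), *Ate1* (r = 0.97) and *Cul4b* (r = 0.97), with GC contents of 40.7% to 44.8%. *Unc79* was most like *Ubr2* (r = 0.96), *Ep300* (r = 0.95) and *AC140073.1* (r = 0.94), and *Unc80* was most like *Gm27028*, *AC122117.2* and *Brwd3* (r = 0.95, 0.91 and 0.91). Among the 6 channel genes, *Hcn2* and *Hcn3* had r = 0.93 and *Hcn2* and *Nalcn* r = -0.92, whereas *Unc79* and *Unc80* had r = 0.23. All these values share library and GC slope.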

How the data were processed

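The brainstems of 12 P15 CFW mice were measured by poly-A RNA-seq with 100 bp single-end reads on 1 lane. The authors used scruff and Trimmomatic to prepare the reads, STAR for alignment to mm10, and featureCounts to count reads over exons of an Ensembl GTF. Versions, strand and multi-mapping settings are not given in the sources used here. The deposited values are counts per gene. The study calls them normalized, but they are whole numbers whose totals differ, and they were used as raw counts. Groups came from the labels for treatment, sex and replicate. The DE thresholds follow those of the study. The dam, a covariate of the study, is not in the labels used here and was left out.

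All genes kept by filterByExpr were fitted in each of 5 comparisons with TMM and edgeR's quasi-likelihood test (edgeR 4.0.16, R 4.3.3), with Benjamini-Hochberg adjustment and with sex as covariate in the sex-combined fit. The study names exactTest, which takes no covariate and was an alternative here. Log2 CPM used a prior count of 2, and length-scaled levels used GENCODE M21 exons. The GC slope of a library is the slope across genes of log2 level, centred over libraries, on GC content of the longest transcript. The channel genes were left out of this slope. Correlations used 100000 permutations, and ratios a pseudocount of 0.5 (scipy 1.17.1). Alternatives were DESeq2 1.42.0 and its size factors, scaling by total counts, no filter, a minimum of 10 counts per library, offsets from loess (span 0.5), exactTest, the replicate block, and each mouse left out. The fits were tested on simulated data.

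The genes named are the 6 channel genes, the DE and the highest genes of 3 lists and the 3 genes most like each channel gene. The channel genes and lists were chosen with earlier results of these data known. One gene that the naming rule picks is not reported here. The labels give no litter, so p-values measure only the spread between these mice. No replicate libraries agreed within sampling noise.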

Additional observations from a re-analysis of the deposited data

Results flagged for a closer look

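The morphine effect on *Unc79* differed between the sexes by 0.37 on the log2 scale by the interaction term of edgeR (adjusted p = 0.985). Morphine males were higher than saline males in 3 of 3 mice, at 45.8 to 48.3 against 37.5 to 39.9 CPM, and the female groups overlapped, at 37.1 to 47.1 CPM with morphine and 40.1 to 46.4 CPM with saline. The adjusted p of the interaction ranged from 0.209 to 0.99997 over leaving out each mouse in turn. Each of the 6 genes was examined for a mouse far from the others among the 6 saline, 6 morphine, 6 female and 6 male mice. None was found in these 24 sets of values. Saline males held both extremes of the saline and of the male sets for *Hcn2*, *Hcn3* and *Nalcn*, which widens the spread there. The check therefore cannot exclude an aberrant mouse, and calls in males turned on saline male 3.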

How the results depend on the processing

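Of the single values, 399 of those with 1 mouse left out kept direction and side of the threshold, 38 changed sign, 11 lost and 8 gained a call. Under other settings 239 kept both, 21 changed sign, 10 lost and 5 gained a call. Counting the 6 genes that were DE, males gave 0 in the main fit and 1 (*Unc79*) with DESeq2's size factors, with total counts, with at least 10 counts in every library, with the GC slope as a covariate and from the fit of all 12 mice, and between 0 and 4 with 1 mouse left out. The interaction gave 1 in the main fit, 0 with DESeq2's size factors, with no filter and with loess offsets, and 0 to 3 with 1 mouse left out. Females against males gave 1 to 2 with 1 mouse left out. The neighbours in the order of levels that passed numbered 5 in the main analysis, 3 with coding length, where *Unc80* over *Nalcn* turned to -0.37, and 0 in saline mice alone. In saline mice alone the sign-flip test allows no p under 0.03125 before adjustment.

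With scaling by total counts the sign turned for *Nalcn* (0.031) and *Unc80* (0.0082) in the sex-combined data, for *Unc80* in males (0.073) and for *Hcn4* in the interaction (0.064). With loess offsets it turned for *Hcn2* (-0.18) and *Hcn4* (-0.0057) in females, for *Hcn2* (0.018) and *Nalcn* (-0.0036) in males, for *Hcn2* (0.20), *Hcn4* (0.11) and *Unc80* (-0.13) in the interaction, and for *Hcn2* (0.21), *Hcn4* (0.11) and *Unc79* (0.035) in females against males. With the GC slope as a covariate it turned for *Hcn2* (-0.088), *Unc79* (0.025) and *Unc80* (0.046) in females, for *Hcn4* (0.088) and *Unc80* (-0.046) in the interaction, and for *Hcn2* (0.053) in females against males. None of these was DE, and the cause was not tested.

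With 1 mouse left out, the log2FC crossed 0 for *Hcn3* (-0.25 to 0.094), *Hcn4* (-0.00073 to 0.13) and *Nalcn* (-0.093 to 0.053) in the sex-combined data, for *Hcn2* (-0.057 to 0.15) and *Unc80* (-0.14 to 0.039) in females, and for *Hcn4* (-0.076 to 0.18), *Nalcn* (-0.10 to 0.30) and *Unc80* (-0.18 to 0.028) in males. It did so for *Hcn4* (-0.19 to 0.092) and *Unc80* (-0.094 to 0.12) in the interaction and for *Nalcn* (-0.084 to 0.056) and *Unc79* (-0.10 to 0.00089) in females against males. Of the log2 ratios, those of *Unc79* to *Nalcn* in males (-0.0073 to 0.34) and females (-0.060 to 0.10), *Unc80* to *Nalcn* in the sex-combined data (-0.079 to 0.026), *Hcn3* to *Hcn2* in males (-0.017 to 0.12) and *Hcn4* to *Hcn2* in females (-0.032 to 0.10) crossed 0.

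The replicate block, fitted with sex in the sex-combined data, gave 0 DE channel genes and 204 DE genes in all, against 221 without it, with log2FC of -0.13 for *Hcn2* and 0.12 for *Unc79*. Only 1 of 6 same-numbered pairs had deviations correlated above 0.1 (range -0.36 to 0.18). In no pair was the same-numbered mouse the best partner, so these values gave no sign of a pairing. They cannot exclude one, since each pair joins a male and a female and the labels give no litter. Over all genes the DE counts that moved by over 1.5 times were, for the sex-combined data, 221 against 754 with no filter, 432 with the GC slope, 458 without saline male 3, 417 without saline female 6 and 393 without morphine female 3. For females they were 328 against 1094 with no filter, 502 with the GC slope and 218 from the fit of all 12 mice, with 208 to 1482 over each mouse left out, and for males 543 against 985 with no filter, 1223 with loess offsets, 2071 with the GC slope, and 253 (without morphine male 4) to 5341 (without saline male 3) with a mouse left out. For the interaction they were 559 against 1665 with no filter, 1090 with loess offsets, 1513 with the GC slope, and 290 (without saline female 6) to 4695 (without saline male 3), and for females against males 733 against 2321 with no filter, and 330 (without saline male 2) to 3947 (without saline male 3). The smallest exact permutation p with 3 mice against 3 is 0.1.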

Other observations

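The length-scaled ratio of *Hcn3* to *Hcn2* separated the sexes. It was 4.35% to 5.53% in the 6 females, with a geometric mean of 5.02%, and 5.62% to 6.96% in the 6 males, with a geometric mean of 6.43%, so that every male was above every female. The female minus male difference was -0.36 on the log2 scale (exact two-sided permutation p = 0.00216, the smallest that 6 mice against 6 allow, adjusted p = 0.00866 over 4 ratios). With saline the ratio was 4.35% to 4.91% in females and 5.62% to 6.83% in males. With morphine it was 5.28% to 5.53% and 6.35% to 6.96%. The order within each treatment follows from the separation over all mice and is no further support. Without morphine male 6, the library with *Xist* reads, the exact permutation p was 0.00433. Leaving out a mouse cannot create an overlap. With loess offsets for GC content and length 5 of 6 males were above every female (exact permutation p = 0.0173, adjusted p = 0.0693). This comparison was chosen after the values had been seen. The share of gene ratios that separate the sexes without overlap was not computed. The share for levels of single genes, 0.140% of 18608, does not measure it. The other 3 ratios overlapped between the sexes (exact permutation p of at least 0.582).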
